A study of Mus musculus with 6 samples.

Results

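Rassf1, Lats2, Gadd45b and Cdkn1b are 4 genes whose products restrain cell growth, and they are described here by the Ezh2 signal at their promoters in mouse embryonic stem (ES) cells. They were chosen by symbol among the 9614 genes named in the authors' peak lists, and they were chosen because of how their signal differed between Brca1-deficient and wild-type cells, so that difference is given below as a description and without a test. Lats2 has 2 listed transcription starts and the other 3 genes have 1 each, which gives 5 start windows of 10183 in all. A window is every probe of the promoter array within 2 kb of the start. Its value is the mean log2 ratio of Ezh2 immunoprecipitate over input DNA after each array was centred on its median. On this scale 1 unit stands for a 2-fold difference.

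The 6 arrays covered 3 mouse ES lines, all grown with LIF on gelatin. AB2.2 cells carry wild-type Brca1 and PL2F8 cells are deficient in it; both have the strain label 129/SvEvBrd-Hprtb-m2 and 2 arrays each. R1 cells received either a control siRNA or one specific for Brca1, were harvested after 48 h, and had 1 array per siRNA, so nothing in R1 has a replicate check. The study asked how loss of Brca1 alters where Ezh2 binds. The sources used here do not give the Brca1 allele of PL2F8 or the efficiency of the knockdown. Arrays of DNA binding hold no measure of Brca1 itself, so its loss was not checked in any sample. Each line may differ from the others in more than Brca1, and with 1 line per genotype the line and the genotype cannot be told apart.

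Ezh2 is the methyltransferase of Polycomb repressive complex 2, which places methyl groups on lysine 27 of histone H3. In ES cells it sits mostly over CpG-rich promoters of genes that are kept off or poised. Cdkn1b encodes p27, an inhibitor of the cyclin-dependent kinases that drive cells from G1 into S phase. Lats2 is a kinase of the Hippo pathway, which phosphorylates the coactivators Yap and Taz and keeps them out of the nucleus. Rassf1 is a scaffold that binds and activates the Mst kinases upstream of Lats, and in human tumours its RASSF1A promoter is often silenced by DNA methylation. Gadd45b is a stress-induced protein that activates MAP kinase signalling and takes part in growth arrest and DNA demethylation.

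The promoter sequences are shown because the Ezh2 signal was read around the starts of these genes and because the 2 starts of Lats2 differ widely in CpG content. They come from RefSeq on GRCm38.p6, where all 4 genes were matched by symbol, and run from 250 bases before to 50 bases after each start, 5′ to 3′ along the gene. The capitals mark CG dinucleotides. RefSeq has 2 starts for Rassf1, 3028 bp apart. The sources used here do not name the genome build of the array, so the match of its Rassf1 start rests on the spacing to the next gene: the array start lies 14507 bp from that of Hyal2, and the RefSeq distances are 14580 bp from the downstream and 17608 bp from the upstream Rassf1 start. The Lats2 starts lie 11705 bp apart on the array and in RefSeq.
Rassf1 upstream start (chr9:107551305-107551604, + strand): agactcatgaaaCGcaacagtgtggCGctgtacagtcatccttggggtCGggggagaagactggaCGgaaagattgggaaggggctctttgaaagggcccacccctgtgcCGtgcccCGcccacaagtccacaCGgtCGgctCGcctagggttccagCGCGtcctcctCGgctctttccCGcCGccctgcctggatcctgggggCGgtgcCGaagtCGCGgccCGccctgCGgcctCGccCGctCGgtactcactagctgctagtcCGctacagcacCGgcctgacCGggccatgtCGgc
Rassf1 downstream start (chr9:107554333-107554632, + strand): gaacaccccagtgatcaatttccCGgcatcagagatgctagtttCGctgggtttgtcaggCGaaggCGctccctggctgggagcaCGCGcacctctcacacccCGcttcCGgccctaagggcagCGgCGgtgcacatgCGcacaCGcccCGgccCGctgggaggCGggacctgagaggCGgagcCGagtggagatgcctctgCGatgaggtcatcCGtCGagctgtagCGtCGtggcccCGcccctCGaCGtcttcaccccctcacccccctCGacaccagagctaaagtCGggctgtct
Lats2 upstream start (chr14:57746074-57746373, - strand): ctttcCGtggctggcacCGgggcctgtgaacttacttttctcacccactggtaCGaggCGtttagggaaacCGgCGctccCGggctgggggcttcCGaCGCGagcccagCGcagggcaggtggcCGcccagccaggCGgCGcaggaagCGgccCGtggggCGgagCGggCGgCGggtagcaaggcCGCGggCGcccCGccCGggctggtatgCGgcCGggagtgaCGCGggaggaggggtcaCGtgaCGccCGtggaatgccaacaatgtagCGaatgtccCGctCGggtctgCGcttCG
Lats2 downstream start (chr14:57734369-57734668, - strand): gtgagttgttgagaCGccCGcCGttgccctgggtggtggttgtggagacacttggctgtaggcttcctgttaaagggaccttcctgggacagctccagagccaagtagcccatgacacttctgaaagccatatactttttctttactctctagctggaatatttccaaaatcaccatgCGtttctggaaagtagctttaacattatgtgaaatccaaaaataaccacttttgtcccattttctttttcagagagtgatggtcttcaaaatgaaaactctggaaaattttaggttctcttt
Gadd45b (chr10:80929841-80930140, + strand): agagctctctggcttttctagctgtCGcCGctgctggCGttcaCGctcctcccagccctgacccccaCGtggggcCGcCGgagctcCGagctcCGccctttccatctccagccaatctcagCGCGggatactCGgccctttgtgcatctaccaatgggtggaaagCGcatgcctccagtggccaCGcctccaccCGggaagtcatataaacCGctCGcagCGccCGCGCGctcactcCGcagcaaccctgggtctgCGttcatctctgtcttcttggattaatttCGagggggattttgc
Cdkn1b (chr6:134920151-134920450, + strand): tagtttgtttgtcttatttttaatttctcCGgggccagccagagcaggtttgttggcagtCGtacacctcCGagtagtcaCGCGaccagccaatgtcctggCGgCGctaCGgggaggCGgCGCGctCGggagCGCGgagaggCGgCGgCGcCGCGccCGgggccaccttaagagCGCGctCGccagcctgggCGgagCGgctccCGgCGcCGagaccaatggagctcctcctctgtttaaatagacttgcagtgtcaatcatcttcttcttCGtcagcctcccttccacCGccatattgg

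Over the 32817 RefSeq promoters of this length the median number of CG dinucleotides was 7. The upstream Lats2 promoter held 37, and 5.59% of all promoters held at least as many. The downstream Lats2 promoter held 4, and 68.6% of all promoters held at least as many. Cdkn1b held 30, both Rassf1 promoters 27 each and Gadd45b 24, so 5 of the 6 sequences were CpG-rich and the downstream Lats2 start was not. The E-box letters CACGTG, which read the same on both strands, occurred 1 time in the upstream Lats2 promoter, 10 bases before the start, and 1 time in the Gadd45b promoter, 185 bases before it. These letters are in 7.15% of all promoters of this length. TATAAA, searched on both strands and present in 13.6% of promoters, occurred only in that of Gadd45b among the 6.

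The arrays as a whole set the scale for reading the 4 genes. The authors listed between 4864 and 6432 peaks per array, and the window values of duplicates correlated, across genes, at r = 0.989 in AB2.2 and 0.998 in PL2F8. The SD of the difference between duplicates was 0.124 in AB2.2 and 0.0612 in PL2F8. Only genes beside a listed peak on some array have a name, so low values on arrays without that peak are partly set by the listing. Of the 9614 named genes, 9612 had a window with enough probes for the fit. Most of these windows were higher in PL2F8. The median difference was 0.30, with 5th and 95th percentiles of -0.31 and 0.83, and limma called 6095 (63.4%) higher and 814 (8.47%) lower. Quantile normalization of the arrays moved the median to 0.14 and the calls to 4820 higher and 1961 lower, so differences of the members are also given relative to the median of all gene windows. In R1, Brca1 siRNA minus control siRNA had a median of -0.0003, with 5th and 95th percentiles of -0.42 and 0.44. Each array averages many cells, so Ezh2 at a promoter in fewer cells and less of it per cell cannot be told apart.

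The 4 genes fell into 2 groups. Ezh2 signal was higher in PL2F8 than in AB2.2 at Rassf1 and at both starts of Lats2, and lower at Gadd45b and Cdkn1b. At all 5 windows the PL2F8 and AB2.2 arrays did not overlap: 3 windows lay above and 2 below. Among all gene windows, 74.0% had both PL2F8 arrays above both AB2.2 arrays and 13.9% had both below. In R1 cells treated with Brca1 siRNA, Gadd45b was again lower and Rassf1 and the downstream Lats2 start were higher than with control siRNA, while the upstream Lats2 start and Cdkn1b differed by less than 0.1.

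**Figure D1:**
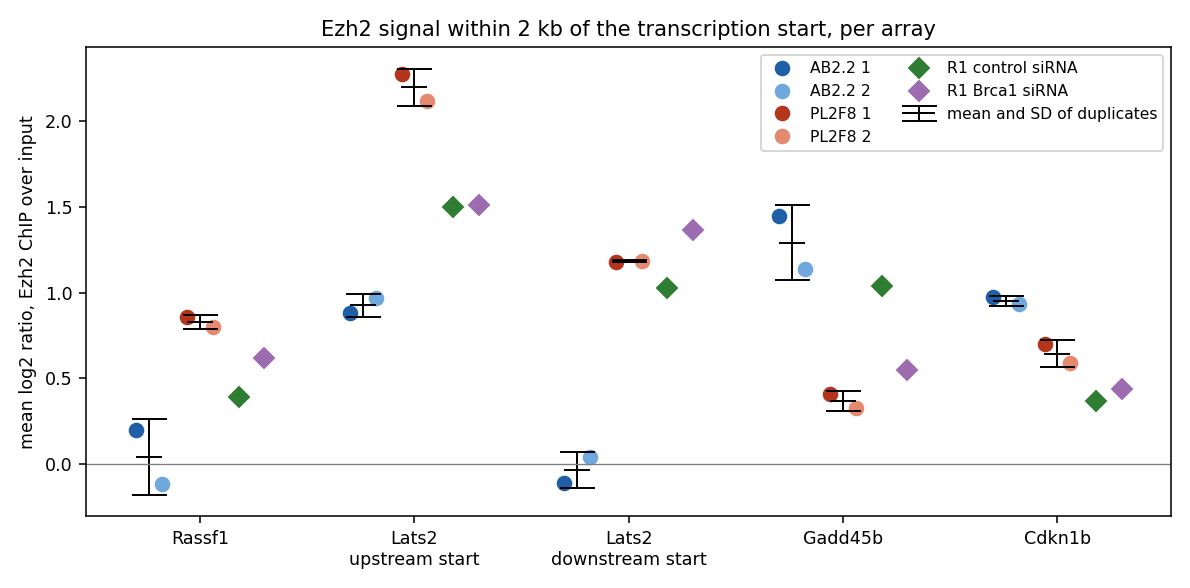
Mean log2 ratio of Ezh2 ChIP over input in the window of each start (y axis), 1 point per array, with the mean and SD of the AB2.2 and PL2F8 duplicates as bars. PL2F8 lies above AB2.2 at Rassf1 and Lats2 and below it at Gadd45b and Cdkn1b, and the R1 arrays, as diamonds, lie between the lines at Rassf1 and at the upstream Lats2 start and below both at Cdkn1b.

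Lats2, the kinase at the core of the Hippo pathway, had the strongest Ezh2 signal of the 4 genes in PL2F8. At its upstream start (NM_015771, at 58364960 on the minus strand of chromosome 14 in the coordinates of the files) the 27 probes averaged 0.88 and 0.97 in AB2.2, 2.27 and 2.12 in PL2F8, 1.50 with control siRNA and 1.51 with Brca1 siRNA in R1. PL2F8 was highest, AB2.2 lowest, and both R1 arrays lay between them and close together. The means were 0.92 ± 0.06 in AB2.2 and 2.2 ± 0.11 in PL2F8 (SD, n = 2 each), a difference of 1.27 (SE 0.08), or 2.41-fold. Of all gene windows, 0.208% had a larger difference, and relative to the median of all windows it was 0.97. The upstream window was above 73.1% and 79.5% of gene windows in AB2.2 and above 92.9% and 92.5% in PL2F8, so it stood higher in rank as well as in level. The R1 difference was 0.01, and 47.8% of gene windows had a larger one. It turned to -0.31 with the median of the probes in place of the mean and was 0.24 with probes within 1 kb. In bins of 500 bp, it was 0.23, 0.39 and 0.43 from 700 bp before to 800 bp after the start. From 2200 to 700 bp before the start it was -0.07, -0.37 and -0.65, so rises near the start and falls farther upstream offset each other in the window mean.

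The difference at the upstream start was largest over the CpG-rich promoter itself. Between 200 bp before and 300 bp after the start, the 5 probes averaged 1.17 and 1.09 in AB2.2, 3.27 and 2.99 in PL2F8, 1.71 with control siRNA and 2.11 with Brca1 siRNA. The difference was 2.00 in this bin, 1.80 in the 500 bp before it and 1.36 in the 500 bp after it. Farther out it changed sign: from 3200 to 2700 bp before the start PL2F8 was lower by a difference of -0.81, at values between -0.17 and 0.12 against 0.65 and 0.91. With every probe within 5 kb the difference was 0.76. The probe of the window with the largest difference, 211 bp before the start, read 1.32 and 0.98 in AB2.2, 4.21 and 4.09 in PL2F8, and 2.14 and 2.62 in R1 with control and Brca1 siRNA. In the window, 24 of 27 probes had both PL2F8 arrays above both AB2.2 arrays and 3 had both below, where 39.4% and 34.1% of all 714900 probes did.

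The downstream Lats2 start (NM_153382, at 58353255) lay at the array median in AB2.2 and above it in every other sample. Its 28 probes averaged -0.11 and 0.04 in AB2.2, 1.18 and 1.19 in PL2F8, 1.03 with control siRNA and 1.37 with Brca1 siRNA. AB2.2 alone was low, and the R1 control array was already 1.06 above the AB2.2 mean and 0.15 below that of PL2F8. This start is listed only through PL2F8 and R1 peaks, so its low place in AB2.2 was partly set by the listing. The means of -0.04 ± 0.10 and 1.18 ± 0.01 (SD, n = 2 each) differed by 1.22, or 2.33-fold. This start has no SE, since the gene entered the fit through its upstream start. The Brca1 siRNA array was 0.34 above control, or 1.26-fold, and higher at 21 of 28 probes, where 46.7% of all probes were higher. Here the signal was lower over the CpG-poor start than on either side of it in PL2F8. From 1200 to 700 bp before the start it was 0.00 and 0.06 in AB2.2, 2.44 and 2.52 in PL2F8, 1.84 with control siRNA and 2.09 with Brca1 siRNA. From 200 bp before to 300 bp after the start PL2F8 read 0.52 and 0.60. From 300 to 800 bp after it the values were 0.19 and 0.35 in AB2.2, 1.42 on both PL2F8 arrays, 1.07 with control siRNA and 1.56 with Brca1 siRNA.

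Rassf1, the scaffold that acts on the Mst kinases upstream of Lats, was near the array median in AB2.2 and moderately bound in PL2F8. Its 27 probes (NM_019713, at 107456986 on the plus strand of chromosome 9) averaged 0.20 and -0.12 in AB2.2, 0.86 and 0.80 in PL2F8, 0.39 with control siRNA and 0.62 with Brca1 siRNA. The AB2.2 duplicates spread more here than those of PL2F8, and a gap of 0.60 separated the groups. The means were 0.04 ± 0.22 and 0.83 ± 0.04 (SD, n = 2 each), a difference of 0.79 (SE 0.10), or 1.73-fold. Relative to the median of all gene windows it was 0.49, and 6.55% of gene windows had a larger difference. Brca1 siRNA was 0.23 above control, or 1.17-fold. That is within the usual range, since 17.9% of gene windows had a larger difference, and it was 0.04 with the median of the probes.

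Along the Rassf1 tile the lines differed most just upstream of the start. From 700 to 200 bp before the start the values were 0.47 and -0.06 in AB2.2, 1.86 and 1.77 in PL2F8, 0.75 with control siRNA and 1.13 with Brca1 siRNA, a PL2F8 minus AB2.2 difference of 1.61. Over the start itself, from 200 bp before to 300 bp after, all 6 arrays carried signal, 1.26 and 0.75 in AB2.2, 1.30 and 1.15 in PL2F8, 0.78 and 0.43 in R1, and the difference was 0.22. From 2200 to 1700 bp before the start it was 0.19, at values near the array median in both lines. In R1 this bin read -0.07 with control siRNA and 1.03 with Brca1 siRNA, a difference of 1.10. Another site lay at the far end of the tile, from 3200 to 2700 bp before the start, the region where the spacing in RefSeq would put the upstream start. There the values were 2.66 and 1.92 in AB2.2, 2.78 and 2.61 in PL2F8, 1.20 with control siRNA and 1.97 with Brca1 siRNA. This distal site, outside the 2 kb window, was the strongest part of the Rassf1 tile on all 6 arrays, and there the AB2.2 and PL2F8 arrays overlapped, with AB2.2 replicate 1 above PL2F8 replicate 2.

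Gadd45b, the stress-response gene, was the member with the largest difference in the lower direction. Its 26 probes (NM_008655, at 80392835 on the plus strand of chromosome 10) averaged 1.45 and 1.14 in AB2.2, 0.41 and 0.32 in PL2F8, 1.04 with control siRNA and 0.55 with Brca1 siRNA. The 3 arrays of cells with intact Brca1 lay above the 3 of Brca1-deficient cells or cells given Brca1 siRNA. Gadd45b was chosen on the PL2F8 difference, and the share of all gene windows that split this way was not counted. The means were 1.29 ± 0.22 and 0.37 ± 0.06 (SD, n = 2 each), a difference of -0.92 (SE 0.10), or 1.90-fold lower in PL2F8. Only 0.198% of gene windows had a lower difference, and relative to the median of all windows it was -1.22. In rank, the window went from above 86.6% and 83.3% of gene windows in AB2.2 to above 38.3% and 34.5% in PL2F8. Gadd45b is listed only through AB2.2 and R1 peaks, so its low place in PL2F8 was partly set by the listing. In R1 it was 0.49 lower with Brca1 siRNA, or 1.40-fold, and 3.07% of gene windows had a lower difference. The difference in PL2F8 was -0.59 with every probe within 5 kb.

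The Gadd45b signal had 2 parts, and they differed between lines. Downstream of the start, from 300 to 800 bp, the values were 2.41 and 1.61 in AB2.2, 0.76 and 0.67 in PL2F8, 2.15 with control siRNA and 1.93 with Brca1 siRNA, so this part was high in both R1 samples too. Upstream, from 700 to 200 bp before the start, they were 2.08 and 1.74 in AB2.2, 0.55 and 0.48 in PL2F8, and 0.64 and 0.36 in R1. The mean of this bin was thus high in AB2.2 alone, though single probes in and beside it also carried signal in R1 with control siRNA. The probe of the window with the largest difference lay in this upstream part, 676 bp before the start. It read 5.32 and 5.01 in AB2.2 against 0.29 and 0.18 in PL2F8, 1.45 with control siRNA and -0.14 with Brca1 siRNA. The adjacent probe farther upstream read 5.09 and 4.92 in AB2.2 and 0.6 and 0.5 in PL2F8. In R1 it read 1.35 with control siRNA and 0.07 with Brca1 siRNA. In AB2.2, the probes beside this pair read 1.5 and 1.03 on the far side and 1.75 and 1.32 on the near side. The upstream signal in AB2.2 therefore stood mainly on 2 probes. In R1, the next 2 probes towards the start read 1.24 and 0.99 with control siRNA and -0.24 and -0.09 with Brca1 siRNA. The 2 probes after those went the other way, at 0.49 and -0.96 with control siRNA and 0.77 and 1.5 with Brca1 siRNA. Leaving out the probe of the largest difference moved the window difference from -0.92 to -0.76. The upstream pair of probes fell in 2 different bins. Of the 500 bp bins, the siRNA arrays differed most in the one over the start, from 200 bp before to 300 bp after it. It read 2.07 with control siRNA and 0.98 with Brca1 siRNA. In that bin AB2.2 read 1.81 and 1.28 and PL2F8 0.50 and 0.42, and both comparisons gave a difference of -1.09. In the window, Brca1 siRNA was lower than control at 19 of 26 probes, where 52.5% of all probes were lower, and PL2F8 was below AB2.2 at 16 probes, above it at 3 and overlapping it at 7.

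Cdkn1b, which encodes p27, differed least. Its 28 probes (NM_009875, at 134870418 on the plus strand of chromosome 6) averaged 0.97 and 0.93 in AB2.2, 0.70 and 0.59 in PL2F8, 0.36 with control siRNA and 0.44 with Brca1 siRNA. AB2.2 was highest, PL2F8 came next, and both R1 arrays were lower than all 4 of these. The means were 0.95 ± 0.03 and 0.64 ± 0.08 (SD, n = 2 each), a difference of -0.31 (SE 0.07), or 1.24-fold lower in PL2F8. This was -0.61 relative to the median of all gene windows, and 4.95% of windows had a lower difference. It was -0.54 after quantile normalization. Brca1 siRNA was 0.07 above control in R1, and 37.8% of gene windows had a larger difference, so the R1 arrays showed no decrease of the size seen in PL2F8. The sign of this R1 difference turned, to -0.10, when only probes within 1 kb were used.

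At Cdkn1b the lines had similar signal at the start and parted on both sides of it. From 200 bp before to 300 bp after the start the values were 1.67 and 1.29 in AB2.2 and 1.45 and 1.38 in PL2F8, which overlap, and 0.48 and 0.42 in R1. From 300 to 800 bp they were 2.08 and 1.60 in AB2.2, 1.31 and 1.23 in PL2F8, 0.49 with control siRNA and 0.57 with Brca1 siRNA, a PL2F8 minus AB2.2 difference of -0.57. From 700 to 200 bp before the start the values were 0.88 on both AB2.2 arrays, 0.56 and 0.42 in PL2F8, and 0.54 and 0.39 in R1. From 1200 to 700 bp before it the lines were close, at 0.62 and 0.70 in AB2.2 and 0.85 and 0.69 in PL2F8. R1 read 0.69 with control siRNA and 0.52 with Brca1 siRNA there. Within the 2 kb window the largest single-probe difference, -1.07, was at 396 bp after the start. At the far end of the tile, from 3200 to 2700 bp before the start, the order reversed, with 0.43 and 0.49 in AB2.2, 1.34 and 1.38 in PL2F8, and 0.06 and 0.19 in R1. The R1 arrays therefore had little Ezh2 signal at Cdkn1b at the start, downstream of it or at this distal site. Cdkn1b is listed only through AB2.2 and PL2F8 peaks, so its low place in R1 was partly set by the listing.

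**Figure D2:**
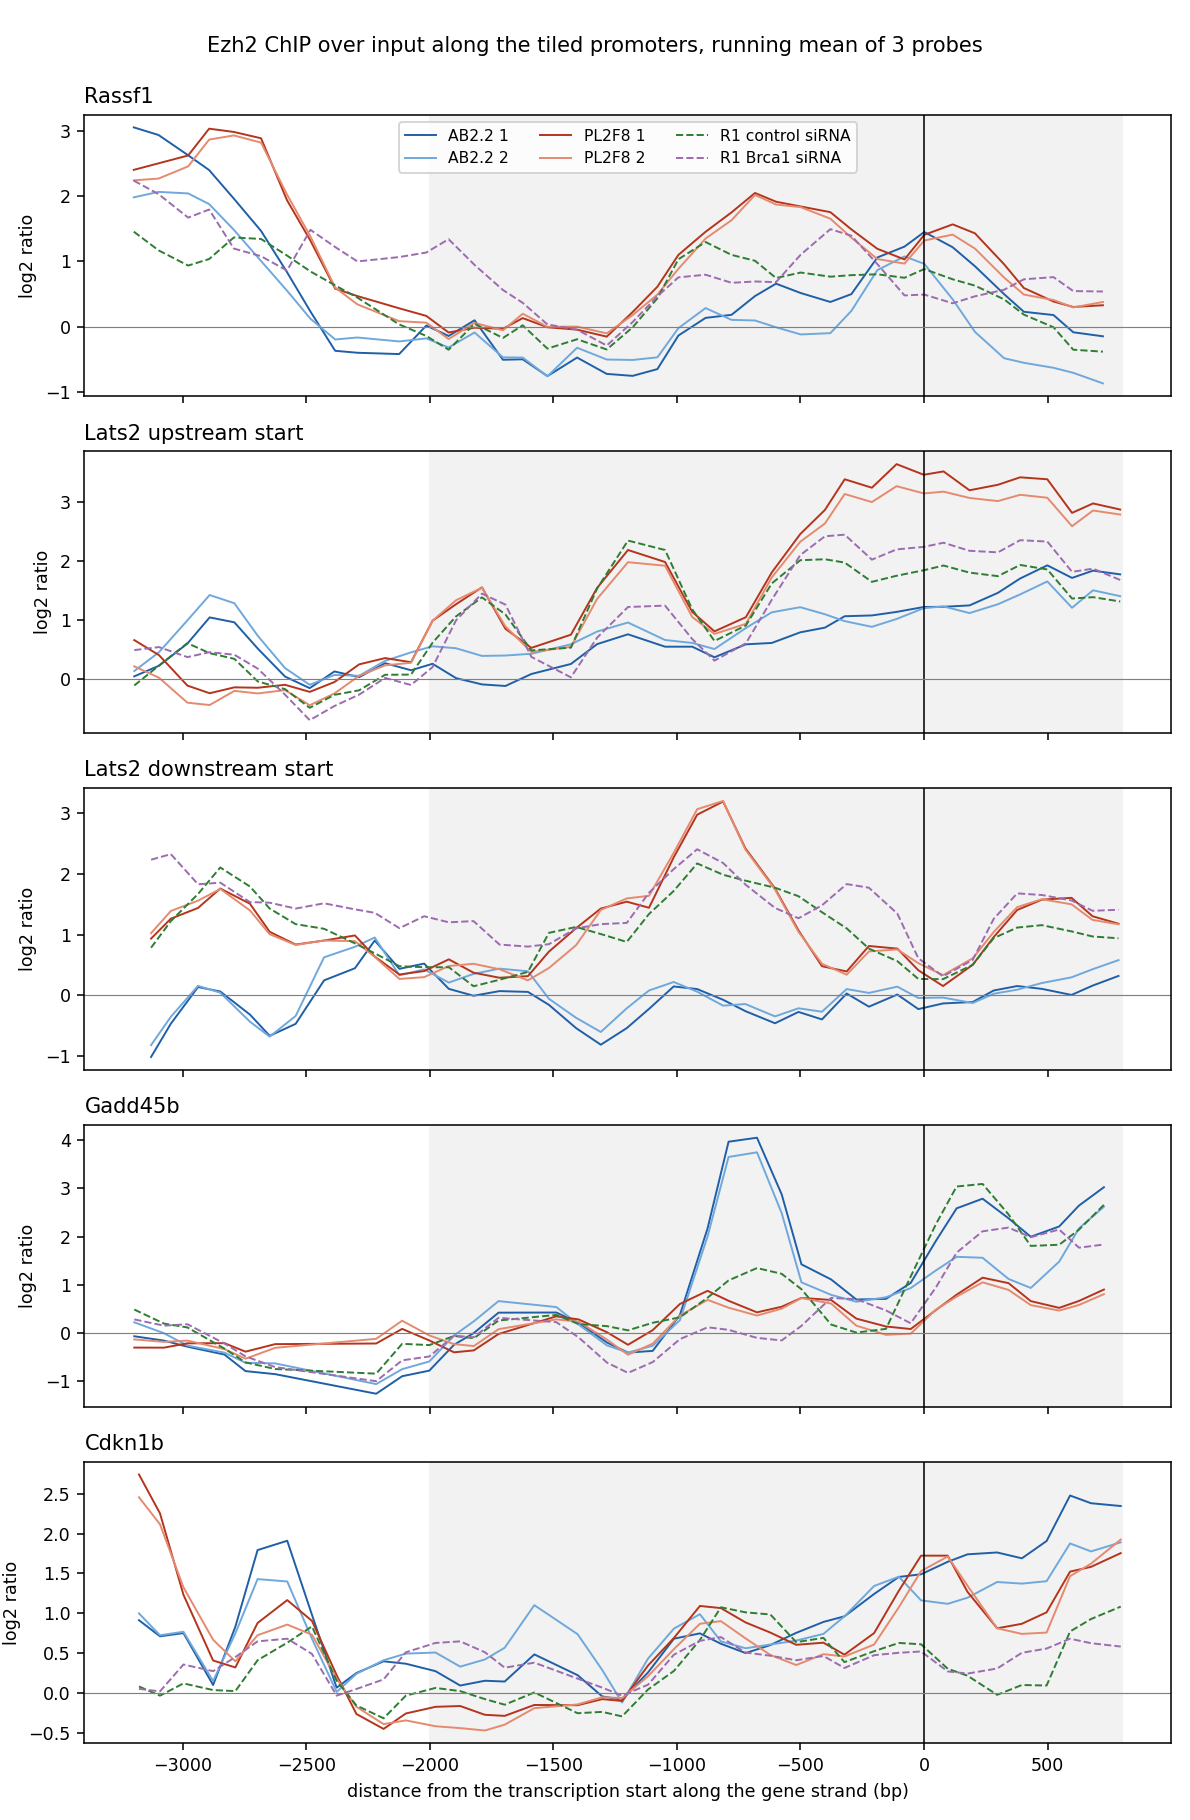
Log2 ratio of Ezh2 ChIP over input (y axis, running mean of 3 probes) against distance from each start along the gene strand in bp (x axis), 1 line per array, with the 2 kb window shaded. PL2F8 is high over the upstream Lats2 start and upstream of the downstream one, and all arrays are high at the far left of Rassf1. Gadd45b has a site about 676 bp before its start that is by far highest in AB2.2, with a lower signal in R1 with control siRNA.

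The array names fall in 2 number series, the first holding both AB2.2 arrays and PL2F8 replicate 2, and the second holding PL2F8 replicate 1 and both R1 arrays. Labels do not say what the series stands for. Within the first series, PL2F8 replicate 2 minus the AB2.2 mean was 0.76 at Rassf1. It was 1.19 and 1.22 at the upstream and downstream Lats2 starts, -0.97 at Gadd45b and -0.37 at Cdkn1b. The arrays of the lines did not overlap at any member window, so the direction could not have turned here and is no check on the series. The second series holds no AB2.2 array and gives no such value. Both R1 arrays share the second series.

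The 2 comparisons share no array, so they can be set side by side. The direction was the same at Rassf1, at both Lats2 starts and at Gadd45b and opposite at Cdkn1b, although the R1 difference at the upstream Lats2 start was near 0. How many of all gene windows kept their direction was not counted. By probe, Brca1 siRNA was above control at 14 and below it at 13 in Rassf1. The counts were 17 above and 10 below at the upstream Lats2 start and 16 and 12 at Cdkn1b. Among all probes 46.7% were above. No member reached a difference of 0.5 in R1, where 3.36% of gene windows were at least that much higher and 2.81% lower. At least 0.25 was reached by the downstream Lats2 start, higher, and by Gadd45b, lower, against 15.6% and 15.0% of gene windows. The starting levels of the lines differed as well: R1 with control siRNA minus the AB2.2 mean was 0.35 at Rassf1, 0.57 and 1.06 at the Lats2 starts, -0.25 at Gadd45b and -0.59 at Cdkn1b. At Rassf1, both Lats2 starts and Cdkn1b these differences between lines with intact Brca1 were larger in size than the R1 siRNA differences of 0.23, 0.01, 0.34 and 0.07, and at Gadd45b the siRNA difference of -0.49 was the larger.

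**Figure D3:**
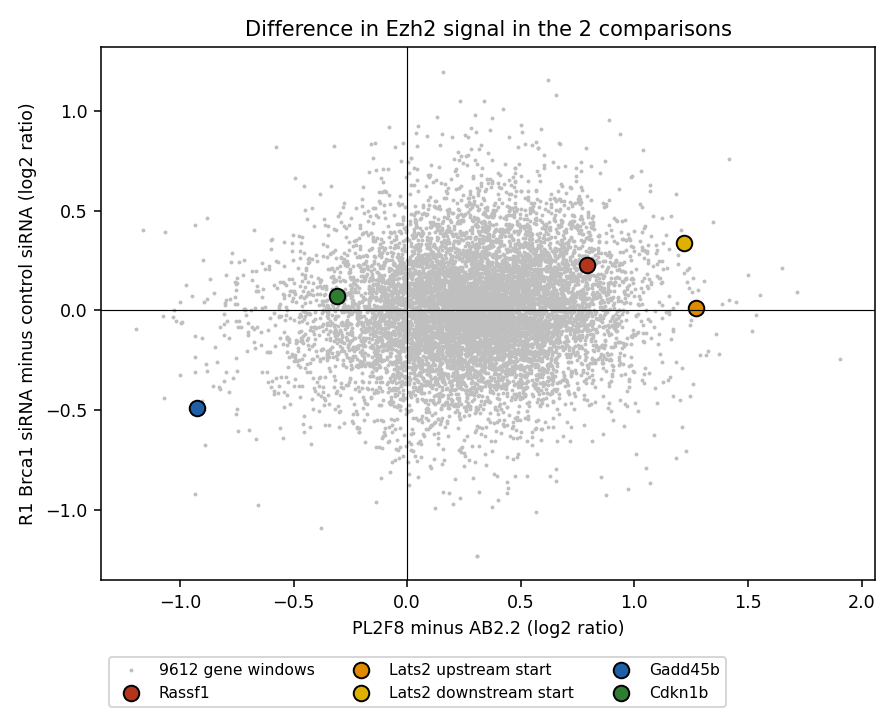
PL2F8 minus AB2.2 (x axis, means of 2 arrays each) against R1 Brca1 siRNA minus control siRNA (y axis, 1 array each), both in log2 ratio, for 9612 gene windows in grey and the 5 member windows in colour. Gadd45b lies at -0.92 and -0.49, the Lats2 starts at 1.27 and 0.01 and at 1.22 and 0.34, Rassf1 at 0.79 and 0.23, and Cdkn1b at -0.31 and 0.07.

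The authors' peak lists, called on each array separately, gave the same 4 genes in another form. Each start has at most 1 peak per array in these lists, so a peak listed at one place does not mean that another place had none. The score of a peak is, per the file headers, the log2 ratio of its number 4 probe in descending order, and the false discovery rate (FDR) is the authors' own. The upstream Lats2 start had a peak on all 6 arrays, as did 3708 of the 9614 named genes (38.6%). The authors' deposited table gave it scores of 1.05 and 0.986 in AB2.2 with FDR 0.180 and 0.00957, 3.25 and 3.18 in PL2F8 with FDR 0 on both, and 2.10 and 2.51 in R1 with control and Brca1 siRNA. The peak reached 794 bp past the start on both PL2F8 and both R1 arrays and stopped 79 bp past it on both AB2.2 arrays. The downstream start had no listed peak in AB2.2. It had a peak from 328 to 682 bp after the start on both PL2F8 arrays, with FDR 0.134 and 0.144. With Brca1 siRNA the peak lay from 233 to 682 bp after the start (FDR 0.0918). With control siRNA it lay from 1062 to 508 bp before the start (FDR 0.0321).

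Gadd45b had a listed peak on both AB2.2 arrays and both R1 arrays and on neither PL2F8 array, a pattern found at 91 of the 9614 named genes (0.947%). The peak lay from 132 to 777 bp after the start in AB2.2 and with control siRNA and ended at 676 bp with Brca1 siRNA. In the authors' deposited table its scores were 2.41 and 1.29 in AB2.2, 2.44 with control siRNA and 2.02 with Brca1 siRNA. Cdkn1b had another pattern, with a peak on both AB2.2 and both PL2F8 arrays and on neither R1 array, as did 127 genes (1.32%). Its scores in the authors' deposited table were 1.86 and 1.44 in AB2.2 and 1.23 and 1.05 in PL2F8, and all 4 peaks covered the stretch from 176 to 725 bp after the start. Rassf1 had a peak on every array but at different places. Both PL2F8 peaks began 779 bp before the start, that of AB2.2 replicate 1 spanned the start itself with an FDR of 0.180, and those of AB2.2 replicate 2 and both R1 arrays began 3198 bp before it at the distal site.

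**Figure D4:**
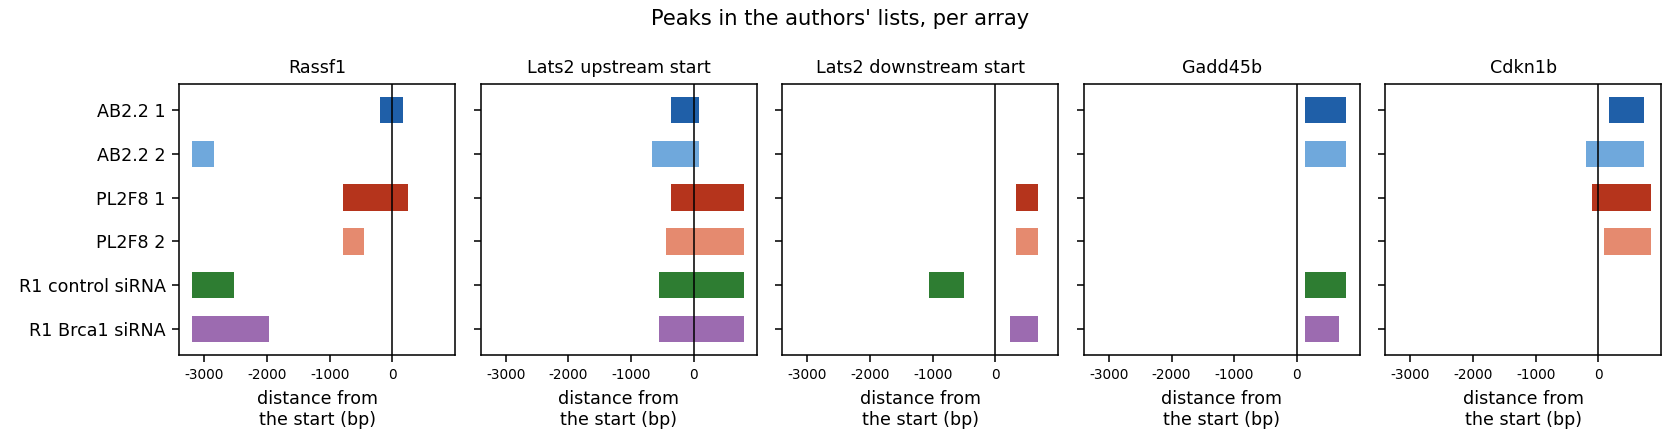
Peaks in the authors' lists at each start (bars, from peak start to peak end in bp from the transcription start, x axis), 1 row per array. Gadd45b has no bar on the PL2F8 rows, Cdkn1b none on the R1 rows, and the downstream Lats2 start none on the AB2.2 rows.

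No window of another named gene shared probes with any of the 5. The genes most like each member were found by the smallest root mean square difference over the 6 arrays, with no statement on function. For Cdkn1b these were Kpna4 (0.039), Socs7 (0.041) and Pcdhb11 (0.055), all with the same order of AB2.2, PL2F8 and R1. For Rassf1 they were Mycbp2 (0.089), Cenpv (0.097) and Spred1 (0.098). The upstream Lats2 start was closest to E330016A19Rik (0.094), Nipal2 (0.114) and Snx33 (0.132), and the downstream start to Abcc3 (0.130), Mylk2 (0.170) and Zfp629 (0.191). Gadd45b had the most distant neighbours together with the downstream Lats2 start: Adssl1 (0.147), Ndufa4l2 (0.196) and Cyp27a1 (0.203).

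Among the genes that work with Lats2 and Rassf1, most were also higher in PL2F8, as were 63.4% of all gene windows. Of 34 genes of the Hippo pathway and the Rassf family, 27 had a window, and limma called 18 higher and 2 lower (8.47% of all gene windows were lower), with 7 not called and a median difference of 0.36. Lats1, the paralogue of Lats2, went from 0.12 to 0.65, a difference of 0.52 ± 0.06 (SE; adjusted p = 0.000239, limma), and the Mst kinase Stk3 from -0.05 to 0.39, a difference of 0.44 ± 0.06 (adjusted p = 0.000501, limma). Both are smaller than the 1.27 at Lats2. The scaffold Sav1, with 0.16, did not pass. The 2 called highest were the transcription factor Tead3 and the atypical cadherin Fat4. Tead3 was at 0.77 ± 0.13 (adjusted p = 0.00142, limma) and Fat4 also at 0.77 ± 0.14 (adjusted p = 0.0015, limma). Rassf1, at 0.79, was close to both. With probes within 1 kb Fat4 was at 1.33 and Rassf1 at 0.92. The 2 called lower were Mobkl1b, an activator of Lats kinases, at -0.46 ± 0.06 (adjusted p = 0.000493, limma), and Vgll4, a cofactor of the Tead factors, at -0.45 ± 0.06 (adjusted p = 0.0005, limma). Vgll4 was 0.50 higher with Brca1 siRNA in R1, and Mobkl1b lost its call with the median of the probes, where it was -0.01.

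The 6 other Rassf genes with a window had differences below the 0.79 of Rassf1. Rassf3 was higher by 0.69 ± 0.08 (adjusted p = 0.000194, limma) and Rassf6 by 0.55 ± 0.07 (adjusted p = 0.000399, limma). Rassf2 at 0.32 and Rassf5 at 0.26 were called higher too, but after quantile normalization they stood at 0.05 and 0.01 and were not called. Rassf4 at 0.01 and Rassf10 at -0.13 were not called, and after quantile normalization both were called lower, at -0.17 and -0.41. With Brca1 siRNA in R1, the difference at these 6 genes ranged from -0.38 at Rassf5 to 0.36 at Rassf2.

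The family member Gadd45g had the same direction in both comparisons. Gadd45g averaged 1.49 and 1.12 in AB2.2, 0.87 and 0.83 in PL2F8, 1.29 with control siRNA and 0.68 with Brca1 siRNA. Both PL2F8 arrays and the Brca1 siRNA array lay below the other 3. How many of all gene windows split this way was not counted. The difference in PL2F8 was -0.45 ± 0.11 (SE; adjusted p = 0.00777, limma), and that in R1 was -0.61, where 2.81% of gene windows were lower by 0.5 or more. With every probe within 5 kb the PL2F8 difference was 0.08 and no longer called. It was also not called with probes within 1 kb, at -0.41, or with the median of the probes, at -0.25. Of the 21 genes in the list of Gadd45 and p53 arrest genes, 11 had a window, and limma called 4 higher and 2 lower, where 63.4% of all gene windows were called higher and 8.47% lower. Their median difference was 0.16. The other one called lower was Bbc3, which encodes the p53 target Puma, at -0.45 ± 0.06 (adjusted p = 0.000567, limma), and in R1 it was -0.29. It was not called with the median of the probes, at -0.21. The 2 called highest were Zmat3, a p53 target, at 0.53 ± 0.07 (adjusted p = 0.000459, limma), and the kinase Plk2, at 0.39 ± 0.08 (adjusted p = 0.00286, limma). The number called higher was 8 without AB2.2 replicate 1 and 2 without PL2F8 replicate 1. Gadd45a had no window here.

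The other inhibitors of the cell cycle were called at a rate near that of all gene windows. Of 15 such genes 9 had a window, and limma called 6 higher, none lower and 3 not, where 63.4% of all gene windows were called higher and 8.47% lower. Their median difference was 0.27. At an unadjusted p under 0.05 none was lower either. The 2 called highest were Tob2, an antiproliferative protein, at 1.02 ± 0.13 (adjusted p = 0.000337, limma), and Pkmyt1, a kinase that holds Cdk1 inactive, at 0.64 ± 0.06 (adjusted p = 0.000113, limma). The closest relatives of Cdkn1b were not called: Cdkn1a, which encodes p21, was at 0.17 and Cdkn1c, which encodes p57, at -0.07. Cdkn1c was called lower, at -0.33, after quantile normalization, and Cdkn1a was -0.55 in R1. Of the Ink4 inhibitors, Cdkn2b was called higher at 0.36 and Cdkn2c at 0.27, and Cdkn2a at 0.15 was not called. Without PL2F8 replicate 1 the count called higher in this list was 3, and Cdkn2b and Cdkn2c were not among them. After quantile normalization Cdkn2c was at -0.04.

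The genes of proteins that p27 inhibits or is controlled by were also near that rate. Of 22 genes in this list 13 had a window, and limma called 9 higher and none lower, beside 63.4% and 8.47% of all gene windows. Their median difference was 0.35. None was lower at an unadjusted p under 0.05. Ccnd2, which encodes cyclin D2, averaged 2.38 and 1.89 in AB2.2, 3.05 and 3.00 in PL2F8, and 2.56 and 2.21 in R1 with control and Brca1 siRNA, a PL2F8 difference of 0.90 ± 0.14 (adjusted p = 0.000872, limma). Ccnd1, which encodes cyclin D1, was higher by 0.87 ± 0.09 (adjusted p = 0.000163, limma). These D-type cyclins activate the kinases that act early in G1. In R1 the list medians were -0.15 for this list, for the cell cycle inhibitors and for the Gadd45 and p53 genes, and -0.02 for the Hippo and Rassf genes, beside -0.0003 for all gene windows.

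**Figure D5:**
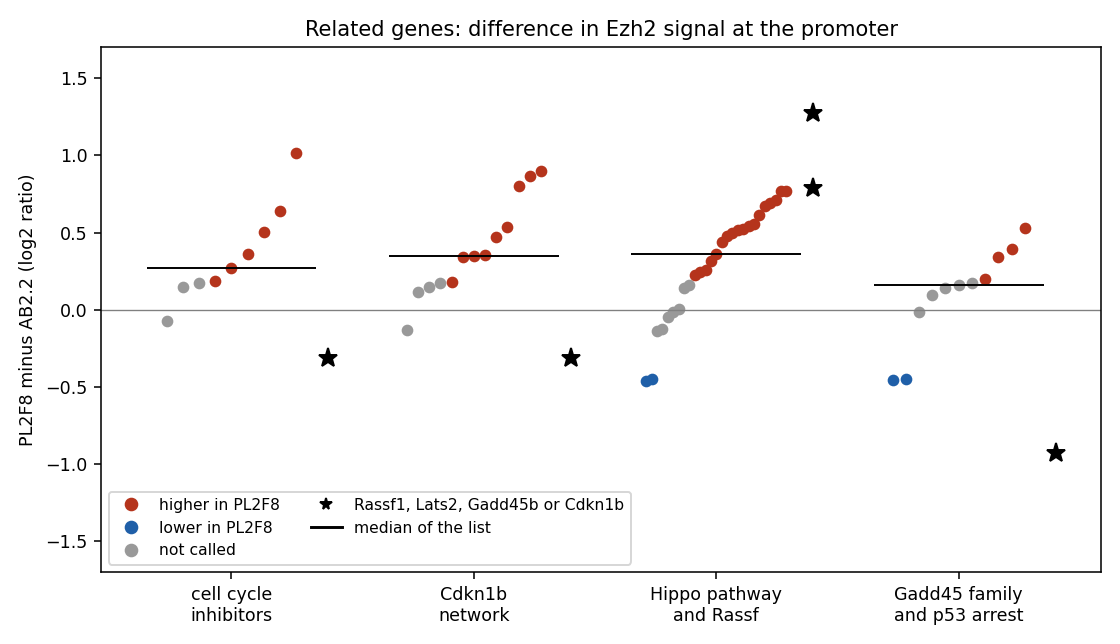
PL2F8 minus AB2.2 in log2 ratio (y axis) for the measured genes of 4 lists, 1 point per gene, coloured by the limma call, with the list median as a bar and the member genes as stars. Most points lie above 0, Lats2 lies above the Hippo list's genes, and Gadd45b lies below its list. Rassf1, at 0.79, lies close to the highest genes of the Hippo list, Tead3 and Fat4, both at 0.77.

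Genes that mark other cells or the ES state were read for the same windows, as binding and not as expression. Of 9 measured markers of fibroblast feeder cells, limma called 6 higher in PL2F8 and none lower, also at an unadjusted p under 0.05, with Twist1 at 1.11 and Col1a2 at 0.91 the highest. Over all gene windows 63.4% were called higher and 8.47% lower. The summed signal of these 9 was 10.9 and 8.90 in AB2.2, 14.7 and 13.9 in PL2F8, and 14.0 and 13.3 in R1. Of 7 ES markers 2 were called higher, Esrrb at 0.59 and Klf4 at 0.32, and 2 lower, Pou5f1 at -0.75 and Fgf4 at -0.53, beside the same shares. Pou5f1 was also -0.60 in R1, but it turned to 0.33, called higher, with probes within 1 kb. The summed signal of the 7 was 4.36 and 3.02 in AB2.2, 3.30 and 3.15 in PL2F8, and 4.76 and 4.52 in R1. Whether the state or purity of the cultures had a part in the differences at the 4 genes was not tested.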

How the data were processed

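Ezh2 ChIP (Cy5) and input DNA (Cy3) were hybridised to NimbleGen promoter arrays, per the labels, with no dye swap. The authors' deposited table holds normalized log2 ratios per probe; the sources used here do not name the method, peak caller or build. Peak scores tracked the table's values inside each peak (r 0.969 to 0.986), which settles scale and direction. The authors deposited each peak's false discovery rate, a q-value as a fraction, of at most 0.198. Here each array was centred on its median, probes within 2 kb of a start were averaged (at least 5 probes), and each gene was represented by its start of highest mean. The probes run from about 3200 bp before to 800 bp after each start.

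The fit of PL2F8 against AB2.2 used limma 3.58.1 and R 4.3.3 (lmFit, eBayes, two-sided, Benjamini-Hochberg over 9612 windows, threshold 0.05), tested on simulated data. SE are the fit's moderated ones. Nothing says that duplicates were separate cultures, so p-values measure only the spread between arrays, and the number of arrays limits precision. Windows, counts and figures were made with matplotlib 3.10.9, numpy 2.4.6, pandas 2.3.3 and Python 3.11.15. The 4 genes and the 6 lists were chosen with earlier results of these data known. Named are the 4 genes, the 3 genes nearest each window, the 2 called highest and 2 called lowest of each list, and the Cdkn, Gadd45, Lats, Mst, Sav and Rassf families. Alternatives were quantile and median absolute deviation scaling, 1 and 5 kb windows, the median of probes, leaving out each array or the most different probe (added after seeing the data), a replicate block, an array series term, and stricter peak rules.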

Additional observations from a re-analysis of the deposited data

Results flagged for a closer look

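Cdkn1b lay lower in PL2F8 than in AB2.2, by a difference of -0.31, and higher with Brca1 siRNA than with control siRNA in R1, by 0.074, so the arrays moved in opposite directions in the 2 comparisons. The difference between them was not tested, since R1 has 1 array per siRNA. The R1 value turned to -0.10 with probes within 1 kb. Both R1 arrays, at 0.36 and 0.44, lay below every AB2.2 and PL2F8 array at this promoter. Since the gene is listed only through AB2.2 and PL2F8 peaks, that low place was partly set by the listing.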

How the results depend on the processing

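No PL2F8 minus AB2.2 difference at a member reversed under the alternatives run, and R1 differences near 0 reversed in 4 cases. The replicate block cannot move these differences, and the array series term repeats the value without PL2F8 replicate 1. Leaving out 1 array cannot reverse them either, since the arrays of the lines did not overlap at any member window. Quantile normalization gave 0.95 at the upstream and 1.09 at the downstream Lats2 start and -0.54 at Cdkn1b. Probes within 1 kb gave 1.49, 1.35, -1.27 at Gadd45b and -0.23 at Cdkn1b, and probes within 5 kb gave 0.76 at the upstream Lats2 start, -0.59 at Gadd45b and -0.20 at Cdkn1b. The median of the probes gave 1.59, 1.09, -0.70 and -0.23 in that order. Without the probe of the largest difference the downstream Lats2 start stood at 1.11 and Gadd45b at -0.76. In R1, the upstream Lats2 start was -0.069 after scaling by the median absolute deviation, 0.24 within 1 kb, -0.31 with the median and -0.005 without that probe. The downstream start was 0.25 after that scaling, Rassf1 0.04 with the median, and Cdkn1b -0.10 within 1 kb and 0.16 with the median. Leaving out 1 array at a time gave 0.63 to 0.95 at Rassf1, 1.19 to 1.35 and 1.14 to 1.29 at the Lats2 starts, -1.08 to -0.77 at Gadd45b and -0.37 to -0.25 at Cdkn1b. The causes were not tested.

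Over all gene windows, leaving out 1 array gave 4509 to 6924 called higher and 481 to 1194 lower, the lowest being 481 without PL2F8 replicate 2 and 513 without PL2F8 replicate 1. Those called lower numbered 1961 after quantile normalization, 458 with the median of the probes and 513 with the array series as a term. Leaving out 1 array gave 3 to 8 cell cycle inhibitors called higher and 0 to 1 lower, 7 to 12 and 0 to 1 genes of the Cdkn1b network, 15 to 20 and 2 to 4 Hippo and Rassf genes, 2 to 8 and 2 Gadd45 and p53 genes, 6 to 7 and 0 to 1 feeder markers, and 2 to 3 and 2 to 3 ES markers. Quantile normalization called 1 cell cycle inhibitor, 1 gene of the Cdkn1b network, 7 Hippo and Rassf genes, 2 feeder markers and 4 ES markers lower. Within 1 kb, 1 each of the cell cycle inhibitors, the Cdkn1b network, the Gadd45 and p53 genes and the ES markers was lower, and within 5 kb 1 of the Cdkn1b network and 2 feeder markers. With the median of the probes, 3 cell cycle inhibitors were higher, and 1 each of the Hippo and Rassf genes, the Gadd45 and p53 genes and the ES markers lower. The array series term gave 3 cell cycle inhibitors and 2 Gadd45 and p53 genes called higher.

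Same-numbered AB2.2 and PL2F8 arrays deviated together at r = 0.245 across windows over only 2 pairs. The labels do not tie same-numbered arrays to each other, so the number was not treated as a pairing. With the replicate block, 6662 windows were called higher and 1017 lower, and 7 Gadd45 and p53 genes higher. At a false discovery rate at or under 0.05, Rassf1 kept a peak on 3 arrays and the downstream Lats2 start on 1. With at least 50% of the peak in the 2 kb window, Rassf1 kept 3. With 2 arrays per line and 1 per siRNA, the number of arrays limits the precision of every value.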
